A study of Mus musculus with 6 samples.

Results

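The genes described here encode the E2F transcription factors and the RB pocket proteins, which together decide when a cell copies its DNA. They were taken by symbol from a list of 10 names: the activators E2f1, E2f2 and E2f3, the repressors E2f4 and E2f6, the atypical repressors E2f7 and E2f8, and the pocket proteins Rb1, Rbl1 and Rbl2. Of these, 9 were among the 18001 genes of the deposited expression table, and E2f6 had no row there and was not analysed here. The data come from poly(A) RNA-sequencing of the mouse fibroblast line NIH/3T3, harvested 48 h after transfection with siRNAs. The study asked how silencing of the glycolytic enzyme aldolase A (Aldoa) changes the mRNA of fibroblasts. The siAldoa group (3 libraries) received an siRNA pool against Aldoa, and the siCtrl group (3 libraries) received a non-targeting pool. All libraries are of the same unmodified cell line, grown in DMEM with fetal calf serum, so they represent 1 line and 1 time point. The study calls the libraries of a group biological replicates, and the labels do not say whether they came from separate cultures. The p-values of the main test rest on the spread between these libraries, in part borrowed from that of other genes.

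E2F factors bind DNA as dimers with a DP protein, or alone in the case of the atypical E2F7 and E2F8, and they control genes for DNA replication and cell division. In resting and early G1 cells the pocket proteins RB, p107 (Rbl1) and p130 (Rbl2) hold E2F factors and recruit corepressors. Cyclin D with CDK4 or CDK6 and cyclin E with CDK2 phosphorylate the pocket proteins, the activators E2F1 to E2F3 are released, and S phase genes are transcribed. E2F7 and E2F8 are themselves made in S phase and switch the same genes off again. Fibroblasts of the 3T3 type are a classical system for this switch, because they leave and enter the cycle with serum.

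Expression was deposited as CPM, reads per gene scaled to library size. The values step in units of 1 read, from which whole reads were recovered. Library totals were 3692341 to 3771129 reads per library, so that 3 reads correspond to 0.786 to 0.822 CPM. Aldoa itself was at 522 to 545 CPM in siCtrl and 62.9 to 72.0 CPM in siAldoa, a level of 12.7% of the control. All 10 fibroblast markers on the list were in the table, with summed levels of 16226 to 16797 CPM in siCtrl and 14085 to 14778 CPM in siAldoa. Of 12 markers of other cell types, 6 were in the table. Their summed level was 22.7 to 28.8 CPM in siCtrl and 11.8 to 18.2 CPM in siAldoa, and Epcam, Myod1, Myog, Adipoq, Tubb3 and Alb had no row. The test described in the next paragraph called 10.0% of all genes lower and 10.4% higher. By it 4 fibroblast markers were lower and 3 higher, and 1 marker of other cells, the epithelial Cdh1, was lower. The part of these shifts in the results was not tested. In bulk RNA, fewer cells of a type or cycle phase and less RNA per cell cannot be told apart.

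The 2 atypical repressors fell in siAldoa, to 64.6% (E2f7) and 59.3% (E2f8) of the control. The activators E2f2 and E2f1 were also called lower, E2f2 on few reads and E2f1 by a small margin. E2f3, E2f4 and the 3 pocket protein genes did not pass the test. The test was limma-trend, fitted two-sided to log2(CPM + 1) of all genes, with p-values adjusted by Benjamini-Hochberg and called under 0.05. By this test 4 of the 9 genes were lower and 0 were higher in siAldoa, where 10.0% of all genes were called lower, 10.4% higher and 20.4% in either direction. These shares include genes with few reads. With genes of a mean CPM of 1.79 or less left out, 1948 of 13500 genes were lower and 1978 higher, and again 4 of the 9. At an unadjusted p under 0.05, 5 of the 9 were lower and 0 higher. The share of all genes at this unadjusted threshold was not counted, here or for the lists below. edgeR, run on whole reads, called 4 lower and 0 higher, and DESeq2 called 2 lower and 0 higher. Complete separation of the groups with siAldoa lower was seen for 4 of the 9 genes, and for 17.1% of all genes. The median difference of the 9 genes was -0.19 on the log2(CPM + 1) scale, and that of all genes was -0.0023.

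**Figure D1:**
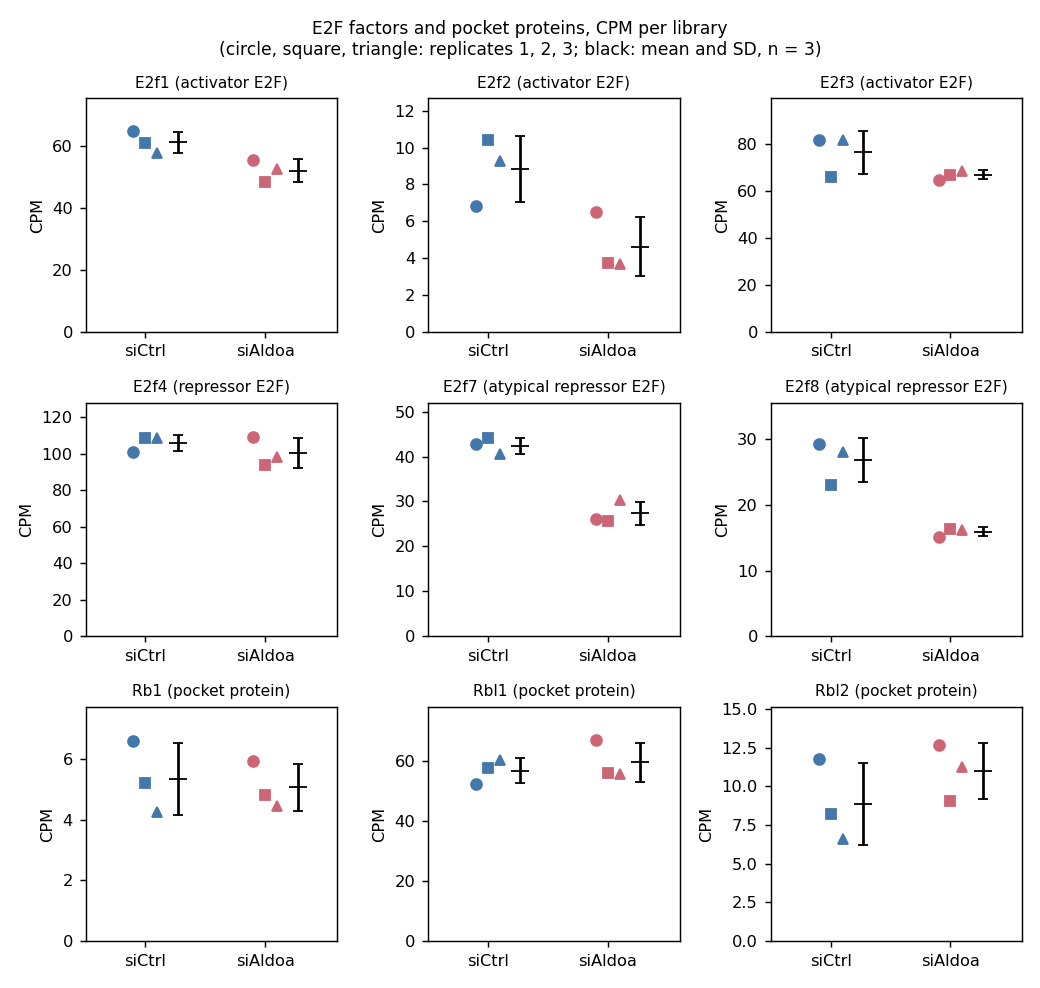
Expression in CPM (y axes, starting at 0) of each of the 9 genes in the siCtrl (blue) and siAldoa (red) libraries, with replicates 1, 2 and 3 as circles, squares and triangles and the mean and SD of 3 libraries in black. The groups are apart for E2f1, E2f2, E2f7 and E2f8 and overlap for the other 5 genes.

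E2f7 (ENSMUSG00000020185, chromosome 10 of GRCm38 from 110745439 to 110787384, plus strand) encodes an atypical E2F that represses S phase genes and needs no DP partner. Its level was 42.7, 44.0 and 40.5 CPM in siCtrl replicates 1, 2 and 3. In siAldoa it was 26.2, 25.7 and 30.4 CPM. The 3 siAldoa libraries all lay below the siCtrl libraries, and the gap between the groups was larger than the range within either. The means were 42.4 ± 1.80 CPM (SD, n = 3) and 27.4 ± 2.59 CPM (SD, n = 3). On the log2(CPM + 1) scale siAldoa differed by -0.62 (SE 0.099; limma adjusted p = 6.0e-05). The exact permutation test over the 6 libraries gave p = 0.1 (two-sided), the smallest p that 3 against 3 allow. E2f7 was called in each of the 18 alternatives tried, among them TMM scaling, which repeated the main fit. Without replicate 1, whose spike-in RNA was added at another step than that of replicates 2 and 3, the log2 fold change was -0.58 (limma adjusted p = 0.036), and the difference between the 2 libraries numbered 1 was -0.69.

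E2f8 (ENSMUSG00000046179, chromosome 7 from 48866429 to 48881596, minus strand) encodes the other atypical E2F, which acts together with E2F7. It was measured at 29.3, 23.0 and 28.0 CPM in siCtrl and at 15.1, 16.3 and 16.2 CPM in siAldoa. The groups did not overlap, and the siAldoa libraries lay close together. Mean expression was 26.8 ± 3.35 CPM (SD, n = 3) and 15.9 ± 0.668 CPM (SD, n = 3), a log2 difference of -0.71 (SE 0.13; limma adjusted p = 0.00024). The difference was -0.91, -0.47 and -0.75 between libraries numbered 1, 2 and 3. The call depended on pairs of libraries: without replicate 1 of both groups the adjusted p from limma was 0.056 (log2 fold change -0.61), and without replicate 3 it was 0.082 (log2 fold change -0.69). On the opposite strand E2f8 shares 610 exon bases with Gm2788, which had 0 to 5 reads per library. E2f7 shares 86 exon bases with 1700020G17Rik, which had 1 to 3 reads per library. How the counting treated strand is not given in the sources used here.

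Sequences before the starts of these genes are shown because E2F genes are themselves classical E2F targets. RefSeq windows of 250 bases before to 50 after the transcription start (GRCm38.p6) were matched by symbol for 7 of the 9 genes, and none was given for E2f4 and Rb1. The RefSeq start was the first base of the GENCODE gene model for E2f7, E2f8, Rbl1, Rbl2 and 1 of the 2 E2f3 windows. The other E2f3 window started 1672 bases inside the gene, the E2f1 window 466 bases inside it, and the E2f2 windows 120 bases before the gene and 8388 bases inside it. For E2f1 and for these windows inside E2f2 and E2f3 the bases searched were thus within the gene, and the sequence before the gene model of E2f1 was not searched. The E2F motif was searched as TTTCCCGC, TTTCGCGC, TTTGCCGC or TTTGGCGC, and the cell cycle homology region (CHR), a motif of genes bound by the DREAM complex, as TTTGAA, each on both strands. The E2F motif was found in 2.26% of all 32851 windows and the CHR motif in 17.9%. By gene, 4 of the 7 had an E2F match, compared with 477 of the 11192 table genes with a window (4.26%). A CHR match was found for 4 of the 7, compared with 1717 of the 11192. The stretches below are in the direction of transcription, end at the base before the start except for E2f7, and have matches of either motif in capitals.
E2f7, chr10:110745215-110745274, plus strand: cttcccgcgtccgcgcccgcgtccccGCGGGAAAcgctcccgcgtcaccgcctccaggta
E2f8, chr7:48881597-48881656, minus strand: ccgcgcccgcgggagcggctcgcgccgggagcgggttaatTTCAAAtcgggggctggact
E2f3, chr13:29986064-29986123, minus strand: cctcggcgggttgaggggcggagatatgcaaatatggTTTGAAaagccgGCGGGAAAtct
Rbl1, chr2:157204535-157204594, minus strand: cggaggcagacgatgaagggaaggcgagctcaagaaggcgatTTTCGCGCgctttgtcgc

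In E2f7 the E2F match lay at -198 to -191 from the start, on the reverse strand. In E2f8 the window held a CHR match at -20 to -15 and no E2F match of these letters. In E2f3 a CHR match at -23 to -18 stood beside an E2F match at -11 to -4, in the more upstream of 2 windows. In Rbl1 the E2F match lay at -18 to -11. For E2f2 an E2F match lay at 40 to 47 after the RefSeq start of the window before the gene, whose bases after the start were not found in a GENCODE transcript, and a CHR match lay in the window inside the gene. Rbl2 had a CHR match at -201 to -196.

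Among the activators, E2f2 (ENSMUSG00000018983, chromosome 4 from 136172394 to 136196057, plus strand) had few reads, 14 to 38 per library. It was at 6.85, 10.4 and 9.26 CPM in siCtrl and at 6.48, 3.74 and 3.67 CPM in siAldoa. The groups did not overlap, but siCtrl replicate 1 and siAldoa replicate 1 were nearly equal. The means were 8.83 ± 1.81 CPM (SD, n = 3) and 4.63 ± 1.6 CPM (SD, n = 3), or 52.4% of siCtrl. The log2 difference was -0.82 (SE 0.24; limma adjusted p = 0.014). Between libraries with the same number the difference was -0.070, -1.26 and -1.14, and without replicate 1 of both groups the log2 fold change was -1.20 (limma adjusted p = 0.027). The call was lost without siAldoa replicate 2 (limma adjusted p = 0.092), siAldoa replicate 3 (0.097), siCtrl replicate 2 (0.10) or siCtrl replicate 3 (0.082). Without replicate 2 of both groups the adjusted p from limma was 0.30 (log2 fold change -0.60), and without replicate 3 it was also 0.30 (-0.67). edgeR's quasi-likelihood test gave an adjusted p of 0.0064 and DESeq2 an adjusted p of 0.054.

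E2f1 (ENSMUSG00000027490, chromosome 2 from 154559407 to 154569892, minus strand) encodes the founding activator, which drives S phase entry and can also induce apoptosis. It was at 64.9, 61.0 and 57.9 CPM in siCtrl and at 55.6, 48.4 and 52.6 CPM in siAldoa. The groups did not overlap, but the gap between them was smaller than the range within either. The means were 61.3 ± 3.50 CPM (SD, n = 3) and 52.2 ± 3.63 CPM (SD, n = 3), or 85.2% of siCtrl. This log2 difference of -0.23 had an SE of 0.079 (limma adjusted p = 0.043). The call was kept in 5 of the 18 alternatives, among them TMM scaling, which repeated the main fit. It was lost without siAldoa replicate 2 (limma adjusted p = 0.19), siAldoa replicate 3 (0.10), siCtrl replicate 1 (0.18), siCtrl replicate 2 (0.11) or siCtrl replicate 3 (0.053). It was also lost without replicate 1 (0.16), 2 (0.29) or 3 (0.17) of both groups in limma. DESeq2 gave an adjusted p of 0.19.

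E2f3 (ENSMUSG00000016477, chromosome 13 from 29906575 to 29986063, minus strand), the third activator, was at 81.6, 65.9 and 81.5 CPM in siCtrl and at 64.8, 66.8 and 68.6 CPM in siAldoa. The groups overlapped through siCtrl replicate 2, which lay among the siAldoa libraries. Its log2 fold change was -0.19 (95% interval -0.35 to -0.022, limma adjusted p = 0.11). Without siCtrl replicate 2 it was -0.29 (limma adjusted p = 0.014).

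E2f4 (ENSMUSG00000014859, chromosome 8 from 105297663 to 105305370, plus strand) encodes the main repressive E2F of resting cells, which binds DNA with p107 and p130. Its level was 101, 108 and 108 CPM in siCtrl and 109, 93.5 and 97.9 CPM in siAldoa. The groups overlapped, with siAldoa replicate 1 the highest of the 6 libraries. Its log2 fold change was -0.080 (95% interval -0.21 to 0.054, limma adjusted p = 0.44). The interval covers fold changes between 0.862 and 1.04.

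The pocket protein genes were not called in either direction in any of the 18 alternatives. Rbl1 (ENSMUSG00000027641, chromosome 2 from 157145893 to 157204534, minus strand) encodes p107, the pocket protein of cycling cells and itself an E2F target. It was at 52.3, 57.4 and 60.3 CPM in siCtrl and at 66.9, 55.9 and 55.5 CPM in siAldoa. The groups overlapped, and the highest library was siAldoa replicate 1. The log2 fold change was 0.064 (95% interval -0.11 to 0.24, limma adjusted p = 0.67), and it was -0.023 without siAldoa replicate 1 and -0.079 without replicate 1 of both groups.

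Rbl2 (ENSMUSG00000031666, chromosome 8 from 91070057 to 91123844, plus strand) encodes p130, the pocket protein that prevails in resting cells. It was at 11.8, 8.21 and 6.61 CPM in siCtrl and at 12.7, 9.09 and 11.3 CPM in siAldoa. The groups overlapped, although each siAldoa library was above the siCtrl library of the same number, by 0.099, 0.13 and 0.69 on the log2 scale. An estimate of 0.31 was obtained on the log2 scale (95% interval -0.12 to 0.73, limma adjusted p = 0.34). With 25 to 47 reads per library, fold changes between 0.922 and 1.66 lie within the interval. Rbl2 shares 693 exon bases with Aktip on the opposite strand, which was at 24.1 to 31.0 CPM, and 892 with Gm45464, which had no row.

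Rb1 (ENSMUSG00000022105, chromosome 14 from 73183673 to 73325822, minus strand), the retinoblastoma gene, had only 16 to 24 reads per library. It was at 6.57, 5.20 and 4.23 CPM in siCtrl and at 5.94, 4.81 and 4.45 CPM in siAldoa. The groups overlapped in full, and the spread within a group was larger than the difference between the means. The estimate on the log2 scale was -0.054 (95% interval -0.53 to 0.43, limma adjusted p = 0.91), and fold changes between 0.690 and 1.35 lie within the interval. Without siAldoa replicate 3 it was 0.020 and without siCtrl replicate 1 it was 0.084. Rb1 shares 488 exon bases with Rcbtb2 on the opposite strand, which was at 16.7 to 21.1 CPM. It also shares 408 exon bases with Lpar6, which had no row.

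**Figure D2:**
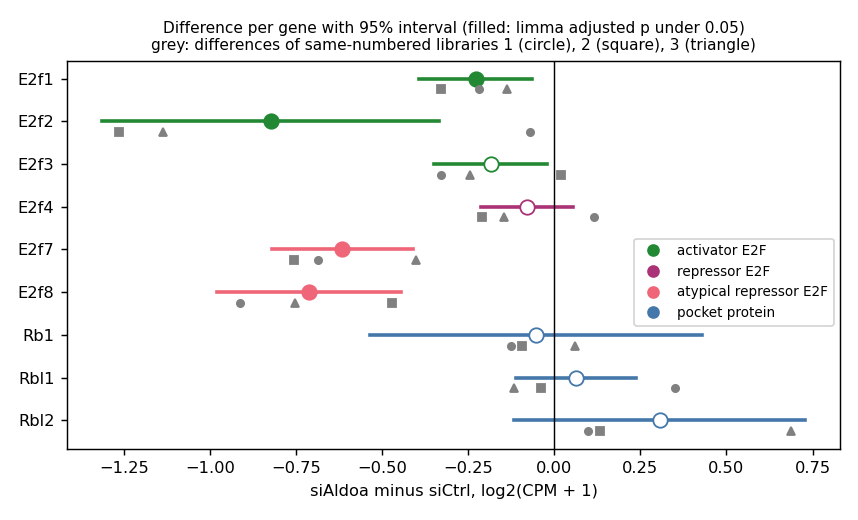
Difference between siAldoa and siCtrl on the log2(CPM + 1) scale (x axis) for each gene, colored by role, with the limma estimate as a circle (filled for an adjusted p under 0.05), its 95% interval as a line, and the differences between same-numbered libraries in grey. The intervals of E2f7 (-0.82 to -0.41) and E2f8 (-0.98 to -0.44) lie far from 0, and those of the pocket protein genes include 0.

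Levels of different genes were compared per kilobase of exon. In siCtrl E2f4 was highest at 43.2 ± 1.79 CPM per kilobase (SD, n = 3), followed by E2f1 (19.4 ± 1.11), E2f3 (14.1 ± 1.66) and Rbl1 (9.46 ± 0.677). E2f8 (4.92 ± 0.615) and E2f7 (4.71 ± 0.200) came next, and their ranges overlapped. E2f2 (1.81 ± 0.371), Rbl2 (1.17 ± 0.350) and Rb1 (0.887 ± 0.196) were lowest, and each overlapped with its neighbor in this order. In siAldoa the order of the upper 4 genes was the same, while E2f7 (3.04 ± 0.287) and E2f8 (2.92 ± 0.123) again overlapped. Rbl2 (1.46 ± 0.240), E2f2 (0.948 ± 0.328) and Rb1 (0.842 ± 0.129) followed, with overlapping ranges between neighbors. Thus p107 mRNA was the most abundant pocket protein mRNA per kilobase in both groups.

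Summed per kilobase, the 3 activators were at 33.6 to 37.0 CPM per kilobase in the siCtrl libraries and at 28.4 to 30.9 in the siAldoa libraries. The atypical E2f7 and E2f8 together were at 9.11 to 10.1 CPM per kilobase in siCtrl and at 5.68 to 6.35 in siAldoa. The 3 pocket protein genes were at 11.4 to 11.6 CPM per kilobase in siCtrl and at 11.3 to 13.8 in siAldoa, with only siAldoa replicate 1 above the siCtrl range by a clear margin. The ratio of activator to atypical mRNA within a library was 3.66, 3.69 and 3.66 in siCtrl and 5.44, 4.86 and 4.73 in siAldoa. This ratio was formed after the values of the single genes were known, and it is given without a test. Exon lengths are those of all GENCODE M21 isoforms merged, and a cell line that uses shorter isoforms would have higher true levels.

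**Figure D3:**
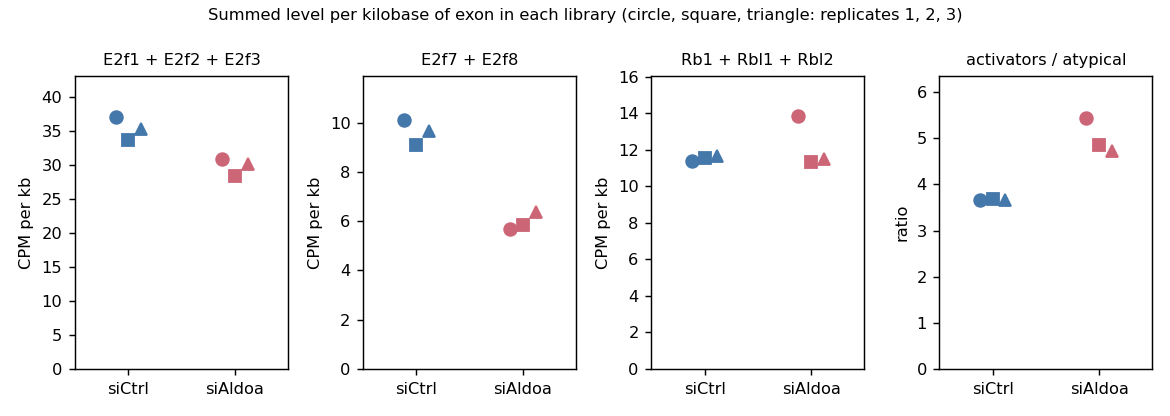
Summed CPM per kilobase of exon (y axes, starting at 0) of the activators, the atypical repressors and the pocket proteins, and the ratio of activators to atypical repressors, in each siCtrl (blue) and siAldoa (red) library, with replicates 1, 2 and 3 as circles, squares and triangles. The atypical sum drops from 9.11 to 10.1 in siCtrl to 5.68 to 6.35 in siAldoa, and the pocket protein sums overlap.

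The genes that act on the pocket proteins were taken as a list of 8. Of these 5 were lower and 0 higher (limma, adjusted p under 0.05), against 10.0% and 10.4% of all genes. The median log2 fold change was -0.22. At an unadjusted p under 0.05, 6 were lower and 0 higher, with no share of all genes counted. edgeR called 5 lower and 0 higher, and DESeq2 4 and 0, where they called 1866 and 1117 of all genes lower. Ccnd1, the cyclin D1 gene, was at 320, 294 and 299 CPM in siCtrl and at 223, 211 and 218 CPM in siAldoa (log2 fold change -0.48, limma adjusted p = 3.7e-08). Ccne1, encoding cyclin E1, was at 46.6, 42.1 and 47.4 CPM against 31.8, 34.7 and 31.9 CPM (log2 fold change -0.45, limma adjusted p = 0.00075). The kinase genes Cdk6 (-0.23) and Cdk4 (-0.21) and the cyclin gene Ccnd2 (-0.13) were lower by smaller amounts. Ccne2 (-0.28), Cdk2 (-0.17) and Ccnd3 (0.12) did not pass. Without replicate 1, 2 or 3 of both groups, 2 genes of this list were called lower in each case. Of all genes, 692, 637 and 520 were lower in these fits.

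Of 7 CDK inhibitor genes, 5 were in the table, and Cdkn1c and Cdkn2b had no row. Cdkn1a, encoding the p53 target p21, was higher, at 184, 171 and 191 CPM in siCtrl and at 217, 217 and 205 CPM in siAldoa (log2 fold change 0.23, limma adjusted p = 0.0019). Cdkn2c, encoding the CDK4 and CDK6 inhibitor p18 and known as an E2F target, was lower, at 169, 169 and 160 CPM against 120, 118 and 129 CPM (log2 fold change -0.43, limma adjusted p = 2.2e-06). Cdkn1b, encoding p27, had a log2 fold change of 0.19 (limma adjusted p = 0.11) and Cdkn2d one of 0.049 (limma adjusted p = 0.90). Cdkn2a, a locus that NIH/3T3 cells are known to have lost, had 6 reads in siCtrl replicate 2 and 0 in the other 5 libraries, where a count of 0 allows up to 3 reads. In the main test 1 of the 5 inhibitor genes was lower and 1 higher, against 10.0% and 10.4% of all genes. Without replicate 1 or 2 of both groups the inhibitor list had 1 gene lower and 0 higher. Without replicate 3 the list had 1 gene lower and 1 higher. Of all genes, 692, 637 and 520 were lower and 740, 683 and 494 higher without replicate 1, 2 or 3.

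Of the 2 DP partner genes of the E2F factors, 1 was higher and 0 were lower, against 10.4% and 10.0% of all genes. Tfdp2 was at 19.2, 18.1 and 19.8 CPM in siCtrl and at 26.4, 30.2 and 27.5 CPM in siAldoa, with no overlap (log2 fold change 0.54, limma adjusted p = 0.0016). Tfdp1, the major DP gene, was at 235, 245 and 248 CPM in siCtrl and at 226, 217 and 231 CPM in siAldoa (log2 fold change -0.11, limma adjusted p = 0.086). Without replicate 2 or 3 of both groups, neither of the 2 genes was called.

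Known E2F targets of G1/S and DNA replication were lower nearly throughout. Of 46 listed genes 43 were in the table, and 37 of them were lower and 0 higher (limma, adjusted p under 0.05), against 10.0% and 10.4% of all genes. The median log2 fold change was -0.45, and all 43 estimates were negative. At an unadjusted p under 0.05, 40 were lower and 0 higher, with no share of all genes counted. edgeR called 37 lower and 0 higher and DESeq2 33 and 0, and without replicate 1, 2 or 3 of both groups 29, 26 and 26 were lower. The list was written with earlier results of these libraries known, so the count is not independent evidence. The largest decreases were in Ung, encoding uracil-DNA glycosylase, and Uhrf1, encoding a partner of the maintenance DNA methyltransferase. Ung was at 32.0, 29.0 and 31.8 CPM in siCtrl and at 12.1, 13.4 and 15.4 CPM in siAldoa (log2 fold change -1.13, limma adjusted p = 5.9e-07). Uhrf1 was at 145, 163 and 147 CPM against 76.9, 64.7 and 67.3 CPM (log2 fold change -1.12, limma adjusted p = 2.9e-11). The origin licensing gene Cdc6 (-0.81) and the ribonucleotide reductase gene Rrm2 (-0.80) followed. The 6 genes that did not pass were Orc1 (-0.52), Tyms (-0.25), Ezh2 (-0.19), Fen1 (-0.14), Chaf1a (-0.095) and Brca1 (-0.035). Of these, Orc1 had only 12 to 28 reads per library and Fen1 only 13 to 27. Of the 34 list genes with a promoter window, 15 held an E2F match (44.1%), against 4.26% of the table genes with a window.

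G2 and M genes, which the DREAM complex of p130 or p107, E2F4 and MuvB represses in resting cells, formed another list. Of 28 measured genes 8 were lower and 1 higher, with a median log2 fold change of -0.085. These are shares of 28.6% and 3.57%, against 10.0% and 10.4% of all genes. Those with the largest decreases were Ccnb2 (-0.40), Cdca8 (-0.31), Birc5 (-0.31) and Ccna2 (-0.23), and the gene that was higher was Hmmr (0.16). Mki67 had a log2 fold change of -0.077 (limma adjusted p = 0.20) and Top2a one of -0.039 (limma adjusted p = 0.55). With replicate 1 of both groups left out 1 gene of this list was lower, and with replicate 2 or 3 left out 0 were. By edgeR 9 were lower and 1 higher, and by DESeq2 4 and 0, where they called 1866 and 1117 of all genes lower. Of the 24 genes with a window, 1 held an E2F match and 19 a CHR match. Among the 11192 table genes with a window, 477 held an E2F match and 1717 a CHR match.

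Where 10.0% of all genes were called lower, 14.3% of the MuvB core genes and their partners were, or 1 gene of 7. This was Mybl2, an E2F target encoding B-MYB, at 47.4, 42.9 and 45.2 CPM in siCtrl and at 30.2, 34.7 and 31.4 CPM in siAldoa (log2 fold change -0.48, limma adjusted p = 0.00046). Foxm1, encoding a transcription factor of G2 and M genes, had a log2 fold change of 0.0053 (limma adjusted p = 0.97). The 5 MuvB subunit genes Lin9, Lin37, Lin52, Lin54 and Rbbp4 did not pass, with estimates from -0.026 to 0.34. Without replicate 2 of both groups 1 gene of the list was called lower, and without replicate 1 or 3 none was. Over all genes 637 were lower without replicate 2, 692 without replicate 1 and 520 without replicate 3.

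Of the 11 genes for partners of E2F6 in the PRC1.6 repressor complex, 1 was lower, the heterochromatin protein gene Cbx3 (log2 fold change -0.25, limma adjusted p = 0.0091). This share of 9.09% was near the 10.0% of all genes called lower, and edgeR called 1 gene of the list and DESeq2 0. Of 7 measured corepressor genes, Rbbp7 (-0.25) and Hdac2 (-0.21) were lower and Sin3b (0.26) was higher. These are shares of 28.6% and 14.3%, against 10.0% and 10.4% of all genes. Of 4 genes for ubiquitin ligase factors that act on the pathway, Cks1b (-0.37), Ccnf (-0.34) and Skp2 (-0.31) were lower. This is a share of 75.0%, against 10.0% of all genes. Fzr1 went the other way (0.17) and did not pass (limma adjusted p = 0.12). Ccnf encodes cyclin F, which marks E2F activators and E2F7 and E2F8 for degradation. Of 7 measured apoptosis genes described as E2F1 targets, Bcl2l11 (0.60) and Apaf1 (0.52) were higher and 0 were lower in limma. The higher share was 28.6%, against 10.4% of all genes. At an unadjusted p under 0.05 the apoptosis list had 1 gene lower and 2 higher, by edgeR 0 and 2 and by DESeq2 0 and 1. Without replicate 1, 2 or 3 of both groups, the corepressor list had 1, 1 and 0 genes lower and 0 higher in each case, and the ubiquitin list had 2, 1 and 1 lower. By DESeq2 2 corepressor genes were lower and 0 higher, so the call of Sin3b was lost in all 4 of these fits. In the fits without a replicate 0 of the PRC1.6 and 0 of the apoptosis genes were called in limma. Without replicate 1, 2 or 3, 692, 637 and 520 of all genes were lower and 740, 683 and 494 higher.

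**Figure D4:**
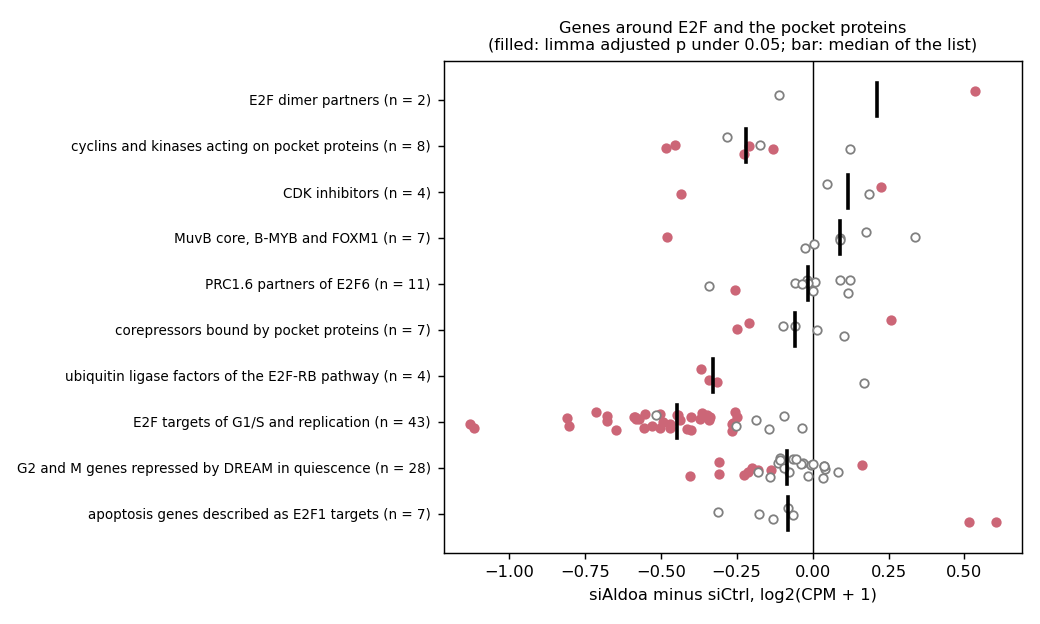
Difference between siAldoa and siCtrl on the log2(CPM + 1) scale (x axis) for each measured gene of the 10 lists around E2F and the pocket proteins other than Cdkn2a, which had 0 reads in 5 libraries, filled for a limma adjusted p under 0.05, with the median of each list as a black bar. The E2F targets of G1/S and replication have a median of -0.45 and all lie below 0, whereas the G2 and M genes have a median of -0.085 and lie on both sides.

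The genes whose pattern over the 6 libraries lay nearest to those of E2f1, E2f8 and Rb1 were found among genes with a mean of at least 10 CPM, by the root mean square distance of centered log2(CPM + 1). Nearest to E2f8 were Zcwpw1 (distance 0.066), the dUTPase gene Dut (0.071) and Gm5873 (0.076), where the median distance of 10058 genes was 0.38. Dut, which is on the list of E2F targets, was at 97.0, 90.3 and 103 CPM in siCtrl and at 56.9, 62.3 and 61.0 CPM in siAldoa. Nearest to E2f1 were Mphosph10 (0.029), Ppp2r2a (0.030) and Mfn2 (0.033), with a median distance of 0.18. Nearest to Rb1 were Eva1c (0.024), Lsm11 (0.061) and Erich1 (0.063), with a median distance of 0.23. These distances rest on 6 libraries of 2 groups, and for Rb1 on 16 to 24 reads per library.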

How the data were processed

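Poly(A) RNA from 3 siCtrl and 3 siAldoa libraries was sequenced 48 h after transfection of NIH/3T3 cells. Alignment by the authors was to mm10 with Bowtie2 (version 2.2.7, per the labels). They subsampled the reads to equal numbers per library, counted them per gene with GenomicAlignments and deposited CPM values scaled to an effective library size. ERCC RNA was added in the lysis buffer for replicate 1 and after extraction for replicates 2 and 3. The annotation release, use of strand and treatment of reads with several alignments are not given in the sources used here. Methods state that genes with fewer than 12 reads were dropped, but the table held 1834 such genes. A second deposited table holds the authors' own comparison and was not used.

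Reads were recovered by dividing each CPM by the smallest non-zero CPM of its library, and 100% of the values were whole within 0.01. The limit of 3 reads for a count of 0 covers counting error only. The 95% intervals are those of limma. They rest on the spread between libraries, which limma moderates for each gene toward a trend over all genes. limma (version 3.58.1, R version 4.3.3) was fitted to log2(CPM + 1) of all 18001 genes. edgeR (version 4.0.16) and DESeq2 (version 1.42.0) on recovered reads, removal of genes with a mean CPM of 1.79 or less, a pseudocount of 0.1, TMM and median-of-ratios scaling, no trend, the replicate block and libraries left out were alternatives. edgeR called 1866 genes lower and 1920 higher. The tests were tried on simulated data with known changes. Exon lengths and positions come from GENCODE M21 (GRCm38), in which 17932 identifiers were found. blastn (version 2.17.0) of transcripts found no matches of at least 90% identity over 200 bases to genes other than overlapping ones.

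All members were described. The cyclin, kinase, inhibitor and DP genes were named freely, and of each other list up to 4 genes with the largest change among those called with groups apart, and the 3 genes nearest in pattern to E2f1, E2f8 and Rb1. Further genes were named where a count or role called for it, after their values were seen. The members and lists were chosen with earlier results of these data known.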

Additional observations from a re-analysis of the deposited data

How the results depend on the processing

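Of the 9 E2F and pocket protein genes, 4 were called lower in the main comparison. Without a mean-variance trend 2 were, with DESeq2 2 were, and across the fits that left out libraries 1 to 4 were, while 0 were higher in every alternative. Median-of-ratios scaling left the count at 4. TMM scaling, counted among the 18 alternatives, repeated the main fit, because the deposited values were already scaled that way. The median of all genes lay between -0.010 and 0.0019 in all settings. E2f7 was called in 18 of 18 alternatives, E2f8 in 16, E2f2 in 10 and E2f1 in 5, with log2 fold changes of -0.72 to -0.54, -0.83 to -0.61, -1.20 to -0.60 and -0.27 to -0.18. E2f1 had a limma adjusted p of 0.051 with a pseudocount of 0.1, and E2f2 one of 0.086 without a trend. The estimates of Rb1 (-0.18 to 0.084) and Rbl1 (-0.079 to 0.155) changed sign when libraries were left out. The E2F targets called lower numbered 26 to 36 in those fits. Their cause was not tested. Over all genes, 1809 were lower and 1867 higher, against 616 and 824 without a trend, 1117 and 1066 with DESeq2, and 520 and 494 without replicate 3 of both groups, the lowest of the fits without libraries.

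The replicate block used the replicate number, which the 2 groups share. After subtraction of group means, same-numbered libraries correlated at 0.040, 0.040 and 0.21 across 8271 genes. Libraries with different numbers correlated at 0.053, -0.086, 0.12, -0.15, -0.14 and -0.079, the 0.12 being siCtrl replicate 2 with siAldoa replicate 1. These values did not settle whether the numbers pair the libraries, and the main fit used no block. With the block 3 of the 9 genes were called lower, E2f1 having a limma adjusted p of 0.058, and with edgeR and the block, chosen after seeing the data, 3 were. The block changed no other call among the 9 genes. Rb1, Rbl2 and E2f2 had 14 to 47 reads per library, which limits what can be detected for them.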
